A study of Homo sapiens with 12 samples.

Results

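The genes described here are 29 genes of cholesterol synthesis and of its control by SREBP, followed in RD, an established cell line of human embryonal rhabdomyosarcoma, a childhood tumour with features of skeletal muscle. They were chosen by name for their place in the pathway, with earlier results of these data known, and are 29 of the 26485 genes counted. The set holds 20 enzymes in pathway order, 5 genes of SREBP regulation and 4 genes of cholesterol transport, uptake control and efflux. All 29 were among the 15206 genes with enough reads to be tested.

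Cells build cholesterol from acetyl-CoA by way of mevalonate, farnesyl diphosphate, squalene and lanosterol, in the cytosol and the endoplasmic reticulum. When sterols in that membrane run low, the carrier SCAP takes the SREBP factors to the Golgi, where proteases free the part that switches on genes of sterol synthesis and uptake, and when sterols are ample the INSIG proteins hold SCAP back. The LXR receptors act in the opposite case: they are bound by oxysterols and switch on genes such as ABCA1, for cholesterol removal, and MYLIP, for control of uptake.

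The cells carried a hairpin, switched on by doxycycline, against NT5E. NT5E encodes CD73, an ectoenzyme that turns AMP into adenosine. The 4 groups of 3 libraries were ish2 with Dox, ish2 without Dox, ish with Dox and ish without Dox, where ish2 and ish are the titles of the hairpin constructs and Dox is 10 ng/mL doxycycline for 96 h. All 4 groups held a hairpin construct and a non-targeting hairpin with Dox is in none of them, so drug, hairpin and NT5E loss cannot be told apart within a Dox effect. The hairpin sequences were not used here. The labels do not say whether replicates were separate cultures, so the p-values measure the spread between libraries, which may be technical.

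NT5E had 14.5, 15.2 and 14.1 CPM in ish2 with Dox, against 24.1, 23.5 and 22.1 CPM in ish2 without Dox, a 1.59-fold lower level (log2 fold change -0.67, SE 0.07, edgeR adjusted p = 4.62e-11). It had 1.94, 1.23 and 1.54 CPM in ish with Dox, against 14.9, 17.96 and 17.3 CPM in ish without Dox, a 10.7-fold lower level (log2 fold change -3.41, SE 0.11, adjusted p = 3.31e-25). CPM is the read count relative to the scaled library total, and a gene is called where the edgeR quasi-likelihood test gives a Benjamini-Hochberg adjusted p under 0.05 over all tested genes. Gene counts per library ran from 26566603 to 32692207. Of the muscle markers for the cell label, 10 genes in all, the 9 tested ones were expressed and MYF5 was listed at 0 in 11 of 12 libraries. The 6 endothelial, 6 leukocyte, 6 hepatocyte and 6 adipocyte markers summed to at most 11.2, 5.93, 1.21 and 0.329 CPM in any library, with TTR, ADIPOQ and FABP4 listed at 0 throughout. Most of the endothelial sum was TEK, at 9.97 to 10.5 CPM in ish2 with Dox and 10.1 to 10.7 CPM in ish2 without Dox. TEK had 1.66 to 2.59 CPM in ish with Dox and 9.07 to 9.41 CPM in ish without Dox.

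As a set, the cholesterol genes were mostly higher with Dox in both constructs, but by different amounts and at different steps. In ish2, 17 of the 29 members were called higher with Dox, where 33.9% of all tested genes were, and 6 were called lower, where 31.1% were. In ish, 21 were called higher against a background of 39.1%, and 4 were called lower against 39.5%. The median log2 fold change of the members was 0.21 in ish2 and 0.66 in ish, where the medians over all tested genes were 0.01 and -0.01. The share called higher was thus 58.6% of members in ish2 and 72.4% in ish. The 20 enzymes alone had 11 higher and 4 lower in ish2 and 15 higher and 2 lower in ish, with median log2 fold changes of 0.14 and 0.88.

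**Figure D1:**
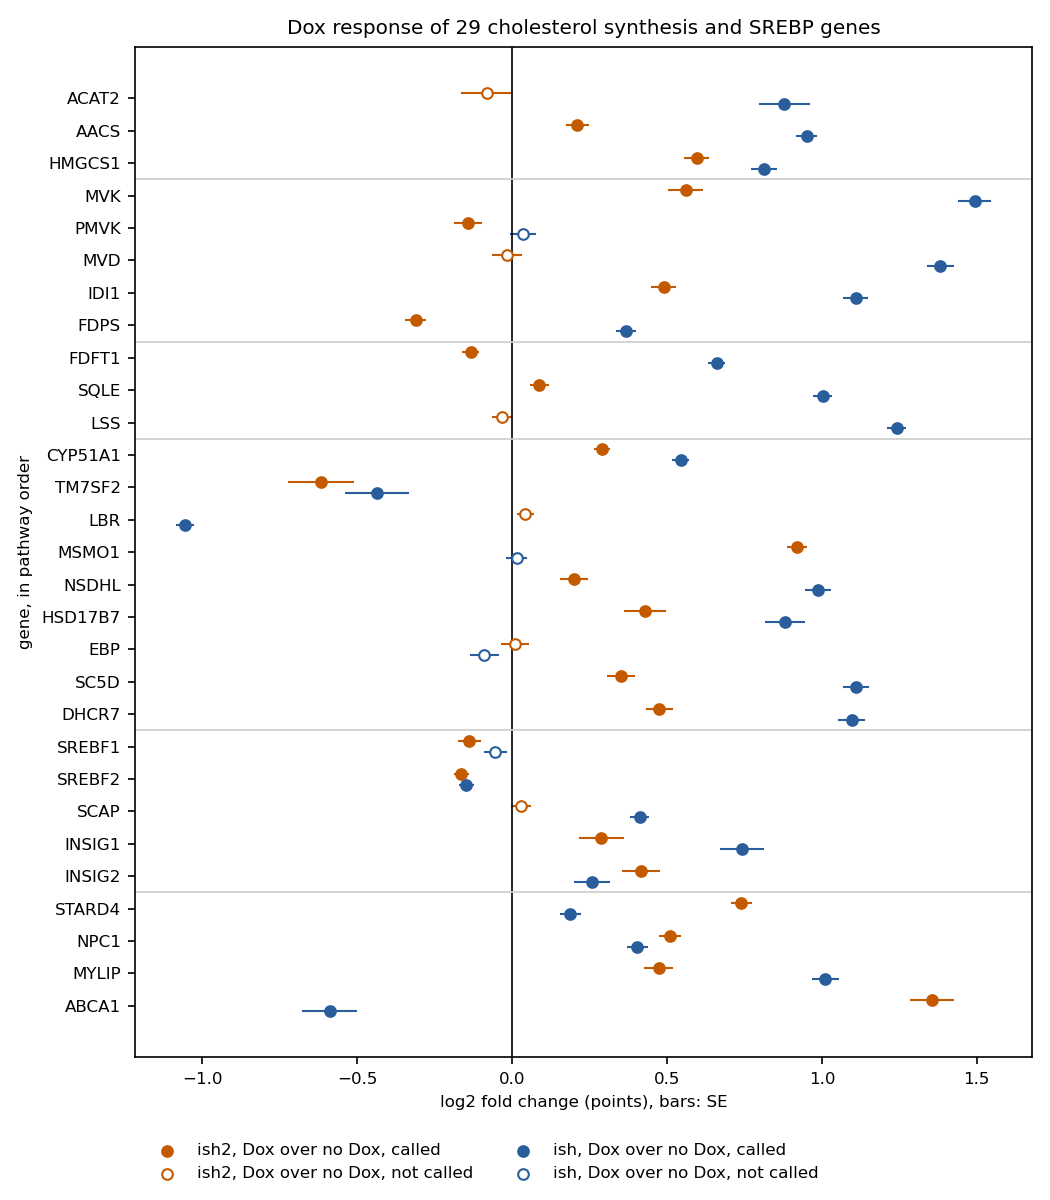
Log2 fold change (points) and SE (bars) of each of the 29 genes, Dox over no Dox, in ish2 and in ish, with genes in pathway order and grey lines between the roles. Filled points were called. In ish most enzymes sit to the right, up to 1.49 for MVK, while in ish2 the largest value is 1.36 for ABCA1, which lies at -0.59 in ish.

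Larger changes were mostly seen in ish. Called and past 1.5-fold were 4 members higher and 1 lower in ish2 (8.77% and 7.65% of all tested genes) and 15 higher and 2 lower in ish (14.9% and 19.9%). The 4 in ish2 were HMGCS1, MSMO1, STARD4 and ABCA1, and the 1 lower gene was TM7SF2. In 17 members every ish2 library with Dox lay above every one without it (background 34.7%), and in 6 every one lay below (31.9%). The same counts in ish were 21 (40.0%) and 5 (40.6%). Tested against a 1.2-fold change in place of none, 12 members were called higher and 1 lower in ish2 (background 14.9% and 14.2%), and 19 higher and 3 lower in ish (24.8% and 27.2%).

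Summed over the 20 enzymes, the level was 2773 ± 54.4 CPM in ish2 with Dox and 2421 ± 120.5 CPM in ish2 without Dox (SD, n = 3 each, as for every mean given here), a ratio of 1.15. The sum was 3557 ± 22.2 CPM in ish with Dox and 2185 ± 75.4 CPM in ish without Dox, a ratio of 1.63. The steps contributed unequally. For the squalene and lanosterol enzymes the ratio of summed CPM was 0.975 in ish2 and 1.87 in ish, for the mevalonate enzymes it was 1.04 in ish2 and 1.75 in ish, and for the acetyl-CoA enzymes 1.30 in ish2 and 1.81 in ish. The enzymes from lanosterol to cholesterol had close ratios, 1.26 in ish2 and 1.32 in ish, made up of different genes, as described for MSMO1 and LBR.

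Markers of other states of these cells moved with Dox too. The 10 muscle markers summed to 762 to 792 CPM in ish2 with Dox and 749 to 796 CPM in ish2 without Dox, and to 3517 to 3761 CPM in ish with Dox and 763 to 820.0 CPM in ish without Dox. Of the 9 tested, 2 were called higher and 7 lower in ish2 (33.9% and 31.1% of all tested genes). In ish 8 were called higher and none lower (39.1% and 39.5%). The close ish2 sums hold opposite changes. In ish2 DES averaged 494 ± 11.9 CPM with Dox against 316 ± 2.34 CPM without it, and MYOG 17.6 ± 1.03 CPM against 82.9 ± 10.3 CPM. The sum for the 8 markers of dividing cells was 1562 to 1603 CPM in ish2 with Dox and 2354 to 2581 CPM in ish2 without Dox. It was 1036 to 1058 CPM in ish with Dox and 2293 to 2357 CPM in ish without Dox. Of the 8 markers, 7 were called lower in ish2 and 8 in ish (31.1% and 39.5% of all tested genes). The part of these changes in the cholesterol results was not tested, and in bulk RNA fewer cells of a type and less RNA per cell cannot be told apart.

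The median coefficient of variation over the members was 2.74% in ish2 with Dox, 5.61% in ish2 without Dox, 1.74% in ish with Dox and 3.63% in ish without Dox. Replicate 3 of ish2 without Dox was the highest of its group in 23 of the 29 members, and replicate 2 of ish without Dox was the lowest of its group in 26. The counts of members called with Dox were 17 higher and 6 lower in ish2 without that ish2 library, and 21 higher and 5 lower in ish without that ish library.

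The enzymes that make the first building blocks were higher with Dox, except ACAT2 in ish2. HMGCS1, the synthase that joins acetyl-CoA and acetoacetyl-CoA into HMG-CoA (on GRCh38, chromosome 5, 43289395 to 43313512), had 331, 318 and 319.9 CPM in ish2 with Dox, against 205, 202 and 234 CPM in ish2 without Dox (log2 fold change 0.60, SE 0.04, adjusted p = 2.39e-10). It had 335, 339 and 335 CPM in ish with Dox, against 197, 186 and 191 CPM in ish without Dox (log2 fold change 0.81, SE 0.04, adjusted p = 8.12e-13). The Dox libraries of both constructs lay close to each other and clear of all libraries without Dox. The ish2 effect minus the ish effect was small for HMGCS1, -0.22 (SE 0.06, adjusted p = 0.00238).

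AACS, the synthetase that makes acetoacetyl-CoA from acetoacetate, had 76.5, 78.7 and 72.6 CPM in ish2 with Dox, against 63.97, 65.2 and 67.6 CPM in ish2 without Dox (log2 fold change 0.21, SE 0.04, adjusted p = 4.58e-06), and 115, 115 and 112 CPM in ish with Dox, against 60.4, 55.6 and 60.7 CPM in ish without Dox (log2 fold change 0.95, SE 0.03, adjusted p = 6.26e-24). Both Dox groups of AACS were above their own controls without overlap, and the ish one was the higher. ACAT2, the cytosolic thiolase that joins acetyl-CoA units, had 100.4, 103 and 95.6 CPM in ish2 with Dox, against 102, 96.2 and 118 CPM in ish2 without Dox (log2 fold change -0.08, SE 0.08, adjusted p = 0.417), groups that overlap. ACAT2 had 144, 143 and 139 CPM in ish with Dox, against 84.8, 71.2 and 75.99 CPM in ish without Dox (log2 fold change 0.88, SE 0.08, adjusted p = 5.8e-06), with no overlap. Exons of ACAT2 share 1141 bases with SOD2 and 397 with TCP1 on the opposite strand. The libraries were made with a stranded kit, but whether the count used strand was not stated, so reads of ACAT2 and of these neighbours may not be separated.

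Among the enzymes from mevalonate to farnesyl diphosphate, MVK and IDI1 were higher in both constructs, MVD in ish, and PMVK and FDPS were lower in ish2. MVK, mevalonate kinase (chromosome 12, 109573255 to 109598117), had 69.4, 65.7 and 60.6 CPM in ish2 with Dox, against 41.1, 45.7 and 45.9 CPM in ish2 without Dox (log2 fold change 0.56, SE 0.06, adjusted p = 4.84e-08). It had 109, 108 and 106 CPM in ish with Dox, against 40.4, 34.7 and 39.4 CPM in ish without Dox (log2 fold change 1.49, SE 0.05, adjusted p = 2.22e-15), 2.82-fold higher and the largest change of any member in ish. All MVK libraries with Dox lay above all those without it. MVK shares 306 exon bases with MMAB on the opposite strand.

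MVD, the decarboxylase that yields isopentenyl diphosphate (chromosome 16, 88651935 to 88663161), had 42.6, 40.5 and 37.2 CPM in ish2 with Dox, against 38.4, 39.8 and 43.3 CPM in ish2 without Dox (log2 fold change -0.02, SE 0.05, adjusted p = 0.774). It had 94.7, 100.4 and 99.2 CPM in ish with Dox, against 38.98, 36.1 and 37.9 CPM in ish without Dox (log2 fold change 1.38, SE 0.04, adjusted p = 2.1e-23), 2.61-fold higher. The ish2 groups of MVD were intermixed, while in ish the Dox libraries stood far above the rest, and the ish2 effect minus the ish effect was -1.40 (SE 0.07, adjusted p = 1.56e-18). IDI1, which interconverts the isoprene units, had log2 fold changes of 0.49 (SE 0.04) in ish2 and 1.11 (SE 0.04) in ish, and its exons share 643 bases with IDI2-AS1 on the other strand.

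FDPS, the synthase of farnesyl diphosphate (chromosome 1, 155308748 to 155320666), moved in opposite directions. It had 175, 168 and 166 CPM in ish2 with Dox, against 211, 199.9 and 221 CPM in ish2 without Dox (log2 fold change -0.31, SE 0.03, adjusted p = 6.05e-09). It had 254, 246 and 251 CPM in ish with Dox, against 202, 184 and 196 CPM in ish without Dox (log2 fold change 0.37, SE 0.03, adjusted p = 5.81e-11). All FDPS libraries with Dox lay below their controls in ish2 and above them in ish. FDPS shares 693 exon bases with RUSC1-AS1 on the other strand, so their reads may not be separated. FDPS has 8 named pseudogenes, of which 1, FDPSP2, was counted. FDPSP2 averaged 0.0563 CPM in ish2 with Dox, 0.0366 CPM in ish2 without Dox, 0.0440 CPM in ish with Dox and 0.0316 CPM in ish without Dox. Whether reads of FDPS were lost to the other pseudogenes was not tested. PMVK, phosphomevalonate kinase, averaged 24.6 ± 0.274 CPM with Dox against 27.1 ± 0.423 CPM without it in ish2 (log2 fold change -0.14, SE 0.05, adjusted p = 0.00661), and 29.6 ± 0.454 CPM with Dox against 28.9 ± 0.746 CPM without it in ish (log2 fold change 0.04, SE 0.04, adjusted p = 0.445). PMVK was thus called lower in ish2 and was not called in ish.

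The 3 enzymes that turn farnesyl diphosphate into lanosterol were all called higher in ish, where 39.1% of all tested genes were. In ish2 SQLE was called higher, FDFT1 lower and LSS neither, shares near those of all tested genes (33.9% and 31.1%). LSS, lanosterol synthase (chromosome 21, 46188141 to 46228824), had 139, 132 and 132 CPM in ish2 with Dox, against 130.3, 138 and 145 CPM in ish2 without Dox (log2 fold change -0.03, SE 0.03, adjusted p = 0.361). LSS had 288, 289 and 288 CPM in ish with Dox, against 123, 119 and 124 CPM in ish without Dox (log2 fold change 1.24, SE 0.03, adjusted p = 2.67e-29), a 2.36-fold difference. The ish2 groups of LSS overlap, and the ish Dox libraries lie close together, far above the rest. LSS was called lower in ish2 without replicate 1 of ish2 without Dox (log2 fold change -0.08, adjusted p = 0.0269).

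SQLE, squalene epoxidase, had 252, 244 and 245 CPM in ish2 with Dox, against 229, 226 and 242 CPM in ish2 without Dox (log2 fold change 0.09, SE 0.03, adjusted p = 0.017). It had 414, 401 and 404 CPM in ish with Dox, against 214, 191 and 204 CPM in ish without Dox (log2 fold change 1.00, SE 0.03, adjusted p = 2.26e-23). In ish2 the highest library without Dox lay just below the lowest with Dox, whereas the ish groups were far apart. The SQLE call in ish2 was lost without any 1 of the 3 ish2 libraries with Dox (adjusted p = 0.141, 0.0682 and 0.0653 without replicates 1, 2 and 3) and without replicate 1 or 2 of ish2 without Dox (0.105 and 0.208). It was also lost with upper-quartile scaling (0.0745). FDFT1, squalene synthase, averaged 296 ± 3.64 CPM with Dox against 325 ± 13.8 CPM without it in ish2 (log2 fold change -0.13, SE 0.03, adjusted p = 6.78e-05), and 476 ± 2.80 CPM with Dox against 301 ± 7.16 CPM without it in ish (log2 fold change 0.66, SE 0.03, adjusted p = 2.3e-22). FDFT1 and FDPS, which act one after the other, were the members called lower in ish2 and higher in ish. With ABCA1 they make 3 members called in opposite directions, against 26.1% of all tested genes.

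**Figure D2:**
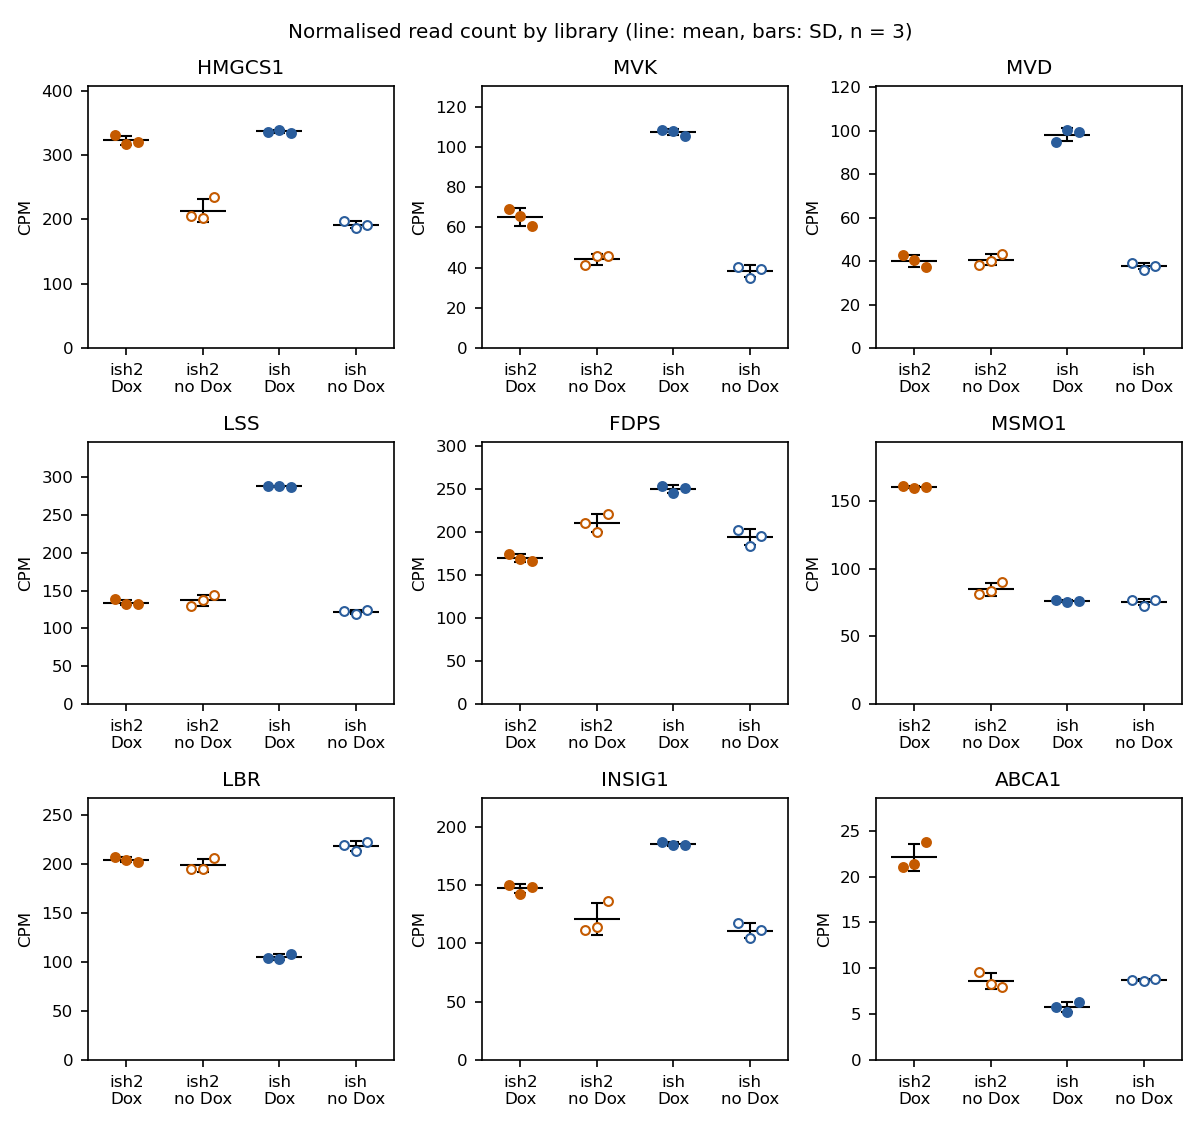
Normalised read count (CPM, axes from 0) of 9 genes in each of the 12 libraries, with the mean (line) and SD (bars, n = 3) of each group. LSS and MVD rise above the other groups in ish with Dox alone, MSMO1 and ABCA1 in ish2 with Dox alone, and LBR is lowest in ish with Dox.

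Of the 9 enzymes from lanosterol to cholesterol, 6 were called higher and 1 lower in ish2 (33.9% and 31.1% of all tested genes), and 5 higher and 2 lower in ish (39.1% and 39.5%). MSMO1, an oxidase that acts on methyl groups of the sterol ring (chromosome 4, 165327623 to 165343160), had 161, 159 and 160.1 CPM in ish2 with Dox, against 80.8, 83.2 and 89.98 CPM in ish2 without Dox (log2 fold change 0.92, SE 0.03, adjusted p = 1.22e-23). MSMO1 had 76.7, 75.2 and 76.2 CPM in ish with Dox, against 76.6, 72.5 and 76.7 CPM in ish without Dox (log2 fold change 0.01, SE 0.03, adjusted p = 0.709). Its level was 1.89-fold higher with Dox in ish2, while the ish groups overlap. MSMO1 was the single member called higher in ish2 and not called in ish, and the effects differed by 0.91 (SE 0.05, adjusted p = 5.01e-19).

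LBR and TM7SF2 encode reductases for the same double bond of the sterol ring, and LBR also ties chromatin to the nuclear lamina. LBR (chromosome 1, 225401502 to 225428925) had 207, 204 and 203 CPM in ish2 with Dox, against 195, 195 and 207 CPM in ish2 without Dox (log2 fold change 0.04, SE 0.03, adjusted p = 0.184). It had 105, 103 and 108 CPM in ish with Dox, against 219.5, 214 and 223 CPM in ish without Dox (log2 fold change -1.06, SE 0.03, adjusted p = 1.28e-27), 2.08-fold lower and the largest fall among the members. All ish libraries with Dox were below every other library for LBR. TM7SF2 was the enzyme with the lowest level and had 4.73, 5.49 and 3.93 CPM in ish2 with Dox, against 6.83, 7.66 and 7.09 CPM in ish2 without Dox (log2 fold change -0.62, SE 0.11, adjusted p = 4.41e-06), and 4.59, 4.49 and 5.69 CPM in ish with Dox, against 6.75, 6.41 and 6.89 CPM in ish without Dox (log2 fold change -0.44, SE 0.10, adjusted p = 0.000242). TM7SF2 was lower with Dox in both constructs without overlap, and its 2 effects were not called different (-0.18, SE 0.15, adjusted p = 0.277).

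CYP51A1, the lanosterol demethylase, had log2 fold changes of 0.29 (SE 0.03) in ish2 and 0.54 (SE 0.03) in ish. NSDHL, the sterol dehydrogenase that follows MSMO1, had 0.20 (SE 0.05) in ish2 and 0.99 (SE 0.04) in ish. HSD17B7, the ketosterol reductase of the same demethylation, had 0.43 (SE 0.07) in ish2 and 0.88 (SE 0.07) in ish. All 3 were called higher in both constructs, with the larger value in ish. A pseudogene of HSD17B7, HSD17B7P2, moved with it on the count scale: 2.10 ± 0.0721 CPM in ish2 with Dox against 1.46 ± 0.0187 CPM in ish2 without Dox, and 3.38 ± 0.257 CPM in ish with Dox against 1.51 ± 0.0908 CPM in ish without Dox, so reads may be split between them. The pseudogene AACSP1 went the other way from AACS. It had 2.40 ± 0.0633 CPM in ish2 with Dox against 3.09 ± 0.371 CPM in ish2 without Dox. In ish it had 1.42 ± 0.378 CPM with Dox against 3.47 ± 0.270 CPM without Dox.

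The last steps differed from each other. SC5D, the sterol desaturase, had log2 fold changes of 0.35 (SE 0.04) in ish2 and 1.11 (SE 0.04) in ish, and DHCR7, the reductase that completes cholesterol in one branch, had 0.48 (SE 0.04) in ish2 and 1.10 (SE 0.04) in ish, all called. EBP, the isomerase before them, averaged 40.5 ± 1.70 CPM with Dox against 40.2 ± 2.94 CPM without it in ish2 (log2 fold change 0.01, SE 0.05, adjusted p = 0.866), and 33.02 ± 0.178 CPM with Dox against 35.1 ± 1.55 CPM without it in ish (log2 fold change -0.09, SE 0.05, adjusted p = 0.0789). EBP was the 1 member not called in either construct. In ish it was called lower without replicate 2 of ish without Dox (log2 fold change -0.13, adjusted p = 0.0231), without any 1 of 5 ish2 libraries (adjusted p from 0.0305 to 0.0499), and in a fit of the ish groups alone (adjusted p = 0.0328).

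The promoter windows of 5 members are shown because these genes carry the contrasts described: HMGCS1 and MVK head the genes called higher in both constructs when ranked by the smaller of their 2 changes, MVD and ABCA1 have the largest differences between the constructs, and SREBF2, chosen after the sequences were seen, holds the single match to a sterol response element. The windows are from RefSeq on GRCh38.p14, run from 250 bases before to 50 after the RefSeq start, and lie at chr5:43313363-43313662 on the minus strand for HMGCS1, chr12:109573544-109573843 on the plus strand for MVK, chr16:88663042-88663341 on the minus strand for MVD, chr9:104928106-104928405 on the minus strand for ABCA1 and chr22:41832855-41833154 on the plus strand for SREBF2. Each is printed 5′ to 3′ along the gene, and capitals mark matches to CCAAT, to CACGTG and to TCACNCCAC on either strand (CCAAT on the other strand reads ATTGG). RefSeq starts can differ from the starts of the gene bounds given with each gene, which are from GENCODE.
HMGCS1: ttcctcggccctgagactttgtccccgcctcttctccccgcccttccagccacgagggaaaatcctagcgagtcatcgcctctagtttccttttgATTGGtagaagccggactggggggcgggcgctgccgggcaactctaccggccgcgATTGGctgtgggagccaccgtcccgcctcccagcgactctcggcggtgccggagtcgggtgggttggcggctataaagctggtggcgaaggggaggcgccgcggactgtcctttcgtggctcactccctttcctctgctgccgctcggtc
MVK: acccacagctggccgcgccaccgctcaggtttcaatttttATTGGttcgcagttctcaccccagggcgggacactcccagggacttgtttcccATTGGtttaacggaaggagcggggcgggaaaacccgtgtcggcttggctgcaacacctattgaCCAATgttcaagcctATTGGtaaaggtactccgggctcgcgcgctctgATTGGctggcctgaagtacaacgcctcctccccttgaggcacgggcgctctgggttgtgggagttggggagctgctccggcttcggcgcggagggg
MVD: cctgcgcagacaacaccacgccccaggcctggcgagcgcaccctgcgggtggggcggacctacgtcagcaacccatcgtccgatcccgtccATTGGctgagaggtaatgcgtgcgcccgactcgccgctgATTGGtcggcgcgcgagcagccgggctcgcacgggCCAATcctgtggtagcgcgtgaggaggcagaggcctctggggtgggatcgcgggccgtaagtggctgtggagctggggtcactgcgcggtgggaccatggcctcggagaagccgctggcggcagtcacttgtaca
ABCA1: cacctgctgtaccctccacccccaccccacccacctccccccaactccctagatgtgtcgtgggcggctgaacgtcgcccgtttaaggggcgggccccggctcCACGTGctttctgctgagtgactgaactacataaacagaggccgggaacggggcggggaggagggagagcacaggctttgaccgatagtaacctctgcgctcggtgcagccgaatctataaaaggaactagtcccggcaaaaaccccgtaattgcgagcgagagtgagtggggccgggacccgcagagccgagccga
SREBF2: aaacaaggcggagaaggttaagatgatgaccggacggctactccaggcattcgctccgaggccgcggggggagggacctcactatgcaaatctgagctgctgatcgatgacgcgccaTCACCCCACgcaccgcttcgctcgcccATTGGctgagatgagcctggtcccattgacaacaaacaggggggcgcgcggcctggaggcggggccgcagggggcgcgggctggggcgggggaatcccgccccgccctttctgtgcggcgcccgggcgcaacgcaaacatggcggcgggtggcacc

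HMGCS1 and MVK, both higher in both constructs, hold 2 and 5 CCAAT matches, MVD holds 3, and ABCA1 holds none but has a CACGTG match. CCAAT is the box bound by NF-Y, which often sits beside SREBP sites. It was found in 16 of the 26 member promoters with an entry (61.5%) and in 36.1% of the 10969 promoters of tested genes. CACGTG, the E-box palindrome, was in 5 of 26 (19.2%), namely LSS, SC5D, SCAP, INSIG1 and ABCA1, against 9.91%. GGGCGG, the box of SP1-type factors, was in 24 of 26 (92.3%) against 68.4%. TCACCCCAC, a form of the sterol response element, was in 1 of 26, SREBF2, where it starts 133 bases before the start, against 0.401%, and TCACNCCAC, of which it is a case, was in the same 1 promoter against 1.10%. Both strands were read and GGGCGG is not marked in the windows. These are matches of letters and not shown to be sites, and ACAT2, FDFT1 and SQLE were not in the table.

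Of the 5 genes that control SREBP, 2 were called higher and 2 lower in ish2 (33.9% and 31.1% of all tested genes), and 3 higher and 1 lower in ish (39.1% and 39.5%). The shares in ish2 are near those of all tested genes. SREBF2, which encodes the SREBP mainly tied to sterol synthesis (chromosome 22, 41833079 to 41907308), had 336, 338 and 336 CPM in ish2 with Dox, against 377, 386 and 367 CPM in ish2 without Dox (log2 fold change -0.16, SE 0.02, adjusted p = 4.33e-07). It had 337, 341 and 333 CPM in ish with Dox, against 372, 370.4 and 377 CPM in ish without Dox (log2 fold change -0.15, SE 0.02, adjusted p = 1.46e-06). SREBF2 was lower with Dox in both constructs by about the same amount and without overlap, and the effects were not called different (-0.02, SE 0.03, adjusted p = 0.697). With TM7SF2 it made up the 2 members called lower in both constructs, a combination found in 14.1% of tested genes.

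SREBF1, which encodes the SREBP mainly tied to fatty acid synthesis, averaged 70.98 ± 1.56 CPM with Dox against 78.1 ± 5.11 CPM without it in ish2 (log2 fold change -0.14, SE 0.04, adjusted p = 0.00167), and 69.3 ± 1.47 CPM with Dox against 71.9 ± 2.41 CPM without it in ish (log2 fold change -0.05, SE 0.04, adjusted p = 0.18). Its exons share 556 bases with RAI1 on the opposite strand. The SREBF1 effects were not called different (-0.08, SE 0.05, adjusted p = 0.154) except without replicate 1 of ish2 without Dox (log2 difference -0.12, adjusted p = 0.0483). SCAP, the carrier of SREBP, averaged 109 ± 0.514 CPM with Dox against 107 ± 4.31 CPM without it in ish2 (log2 fold change 0.03, SE 0.03, adjusted p = 0.438), and 142 ± 4.003 CPM with Dox against 107 ± 2.46 CPM without it in ish (log2 fold change 0.41, SE 0.03, adjusted p = 5.96e-15). SCAP was thus called in ish and not in ish2, and the difference of effects was called (-0.38, SE 0.04, adjusted p = 6.87e-10).

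INSIG1, itself a target of SREBP (chromosome 7, 155297776 to 155310235), had 150.2, 142 and 148 CPM in ish2 with Dox, against 111, 114 and 136 CPM in ish2 without Dox (log2 fold change 0.29, SE 0.07, adjusted p = 0.00608). It had 187, 184 and 185 CPM in ish with Dox, against 117, 104 and 111 CPM in ish without Dox (log2 fold change 0.74, SE 0.07, adjusted p = 5.12e-06). In ish2 the groups of INSIG1 did not overlap, though replicate 3 without Dox came near the lowest library with Dox, and the ish groups were farther apart. INSIG2, the second retention protein, averaged 17.7 ± 0.694 CPM with Dox against 13.3 ± 0.608 CPM without it in ish2 (log2 fold change 0.41, SE 0.06, adjusted p = 3.16e-07), and 17.3 ± 0.758 CPM with Dox against 14.5 ± 0.794 CPM without it in ish (log2 fold change 0.26, SE 0.06, adjusted p = 0.000151). Both INSIG genes were called higher in both constructs and the effects on INSIG2 were not called different (0.16, SE 0.09, adjusted p = 0.0982).

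The 4 transport and efflux genes were all called higher in ish2 (33.9% of all tested genes). In ish 3 were called higher and 1 lower (39.1% and 39.5%). Their summed level was 240.5 ± 0.656 CPM in ish2 with Dox against 153.7 ± 6.22 CPM in ish2 without Dox. It was 200.9 ± 6.05 CPM in ish with Dox against 149 ± 0.934 CPM in ish without Dox. ABCA1, the pump that passes cholesterol to apolipoprotein and an LXR target (chromosome 9, 104781002 to 104928237), had 21.1, 21.4 and 23.8 CPM in ish2 with Dox, against 9.64, 8.34 and 7.95 CPM in ish2 without Dox (log2 fold change 1.36, SE 0.07, adjusted p = 1.72e-18), 2.56-fold higher. It had 5.74, 5.25 and 6.37 CPM in ish with Dox, against 8.72, 8.65 and 8.82 CPM in ish without Dox (log2 fold change -0.59, SE 0.09, adjusted p = 2.21e-07). The groups without Dox lay together, and Dox libraries lay above them in ish2 and below them in ish. ABCA1 was the single member called higher in ish2 and lower in ish, and its difference of effects, 1.94 (SE 0.11, adjusted p = 1.63e-17), was the largest of the members.

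STARD4, which carries cholesterol between membranes (chromosome 5, 111496033 to 111512590), had 87.3, 87.4 and 87.1 CPM in ish2 with Dox, against 50.3, 51.7 and 54.8 CPM in ish2 without Dox (log2 fold change 0.74, SE 0.03, adjusted p = 5.01e-20). It had 59.4, 59.1 and 61.2 CPM in ish with Dox, against 52.5, 51.8 and 53.6 CPM in ish without Dox (log2 fold change 0.19, SE 0.03, adjusted p = 9.14e-06). STARD4 with Dox was above its controls in both constructs and farther so in ish2 (difference of effects 0.55, SE 0.05, adjusted p = 1.83e-12). NPC1, which exports cholesterol from lysosomes, averaged 94.1 ± 0.698 CPM with Dox against 66.05 ± 3.59 CPM without it in ish2 (log2 fold change 0.51, SE 0.03, adjusted p = 1.76e-15), and 77.5 ± 1.94 CPM with Dox against 58.5 ± 0.631 CPM without it in ish (log2 fold change 0.40, SE 0.03, adjusted p = 4.79e-13). The difference of effects for NPC1, 0.11 (SE 0.05, adjusted p = 0.0514), was called without replicate 3 of ish2 without Dox (0.15, adjusted p = 0.00545) and with no filter on low counts (0.11, adjusted p = 0.048). MYLIP, a ubiquitin ligase for lipoprotein receptors and like ABCA1 an LXR target, averaged 37.1 ± 0.750 CPM with Dox against 26.7 ± 1.10 CPM without it in ish2 (log2 fold change 0.47, SE 0.05, adjusted p = 8.67e-11), and 57.7 ± 2.75 CPM with Dox against 28.7 ± 1.41 CPM without it in ish (log2 fold change 1.01, SE 0.04, adjusted p = 8.78e-22). MYLIP was higher in both constructs and more so in ish, where ABCA1 was lower.

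Testing the difference itself, the ish2 effect minus the ish effect was called in 23 members (background 72.6%): lower in 19 (35.2%) and higher in 4 (37.4%). The 6 not called were TM7SF2, EBP, SREBF1, SREBF2, INSIG2 and NPC1. The 4 with the higher value in ish2 were LBR, MSMO1, STARD4 and ABCA1, and 16 of the 19 were enzymes. The median difference was -0.45 over the members and -0.65 over the enzymes, against 0.01 over all tested genes. Past 1.5-fold were 12 members with the lower value in ish2 (background 16.7%) and 3 with the higher (21.5%), and against a 1.2-fold change 16 lower (24.4%) and 4 higher (27.3%) were called. Leaving out replicate 3 of ish2 without Dox gave 6 members with a higher value in place of 4, EBP (0.16, adjusted p = 0.0254) and NPC1 being the added ones. Across the 29 members the log2 fold changes in ish2 and in ish had a Pearson r of 0.07 and a Spearman rho of 0.20, against -0.10 and -0.01 across the 15206 genes, genes that share libraries and are not independent. In both constructs 15 members were called higher, 51.7% of the 29, where 13.8% of tested genes were. The 4 called higher in ish and not called in ish2 were ACAT2, MVD, LSS and SCAP, against 13.2%.

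**Figure D3:**
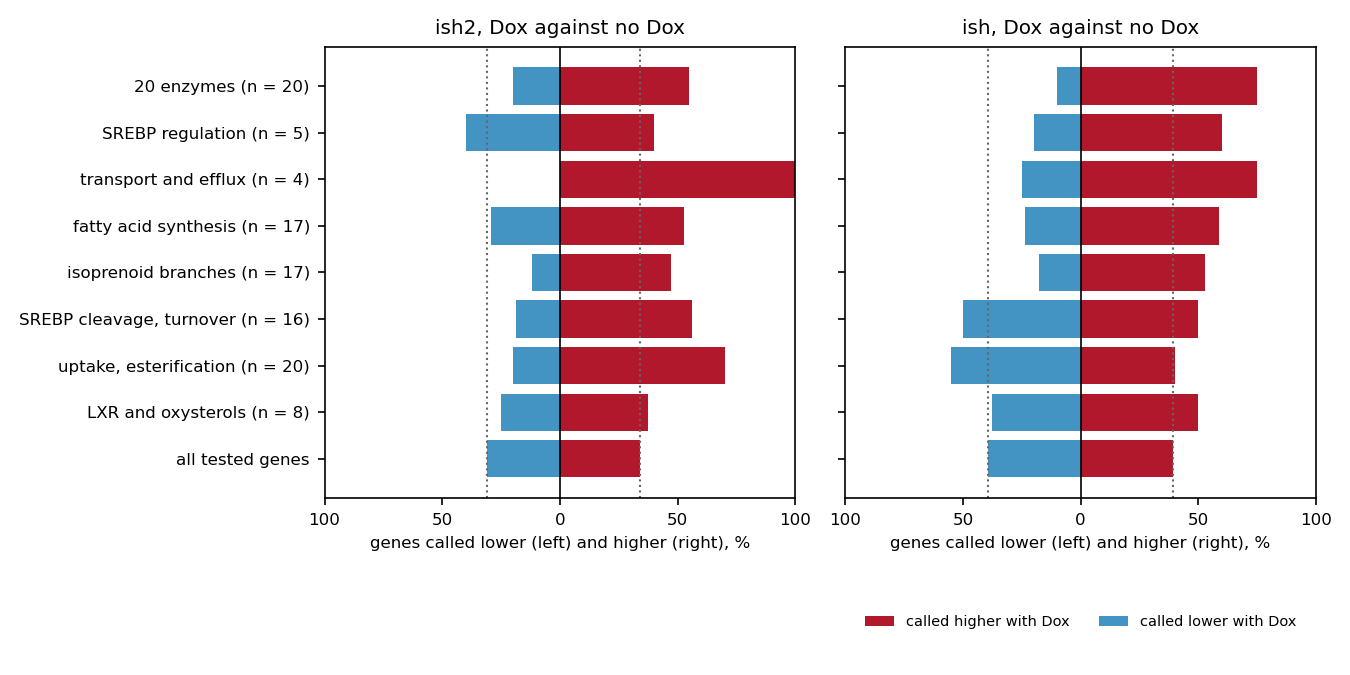
Percent of genes called lower (left of 0) and higher (right of 0) with Dox in ish2 and in ish, for the enzymes, SREBP regulation, transport and efflux, 5 lists of neighbouring pathways and all tested genes, whose shares the dotted lines mark. The enzymes reach 55% higher in ish2 and 75% in ish, while the uptake and esterification list reaches 70% in ish2 and 40% in ish.

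The uninduced libraries of the constructs, collected at the same time as those with Dox, were compared too. Construct and the line that carries it cannot be told apart in this comparison, and these libraries also enter the Dox effects. NT5E itself was higher in ish2 without Dox (23.3 ± 1.03 CPM) than in ish without Dox (16.7 ± 1.61 CPM), without overlap. The part of this in the member results was not tested. Without Dox, 17 members were called higher in ish2 than in ish (background 13.7%) and 1, LBR, was called lower (12.4%). None of them passed 1.5-fold, which 0.388% of tested genes did upwards and 1.44% downwards. In 15 members all ish2 libraries lay above all ish libraries (19.5%) and in 3 below (18.7%). The largest difference was in ACAT2, with 105 ± 11.5 CPM in ish2 without Dox and 77.3 ± 6.91 CPM in ish without Dox (log2 fold change 0.45, SE 0.08, adjusted p = 0.00459). DHCR7 had 146 ± 11.3 CPM in ish2 without Dox and 119 ± 4.76 CPM in ish without Dox (log2 fold change 0.29, SE 0.05, adjusted p = 0.000161). The libraries named above enter here: the count of higher members was 14 without replicate 3 of ish2 without Dox and 13 without replicate 2 of ish without Dox, and tested against a 1.2-fold change 0 were higher (background 0.329%) and 0 lower (0.730%).

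Levels between genes were compared per kilobase of principal mRNA. In ish without Dox, the order ran from FDPS at 131 ± 6.24 CPM per kilobase through FDFT1 (113 ± 2.69), CYP51A1 (82.4 ± 2.73), SREBF2 (71.2 ± 0.666) and SQLE (68.5 ± 3.84) down to INSIG2 (5.60 ± 0.307), TM7SF2 (3.88 ± 0.143) and ABCA1 (0.832 ± 0.00819). SREBF2 and SQLE, neighbours in that order, lay within the SD of SQLE. With Dox in ish, FDFT1 was at 179 ± 1.05 and FDPS at 169 ± 2.95 CPM per kilobase, so FDFT1 came first. In ish2 with Dox, CYP51A1 (116 ± 1.33), FDPS (115 ± 3.14) and FDFT1 (111 ± 1.37) lay close together, with CYP51A1 and FDPS within the SD of FDPS. INSIG1 per length was above INSIG2 in all 4 groups.

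**Figure D4:**
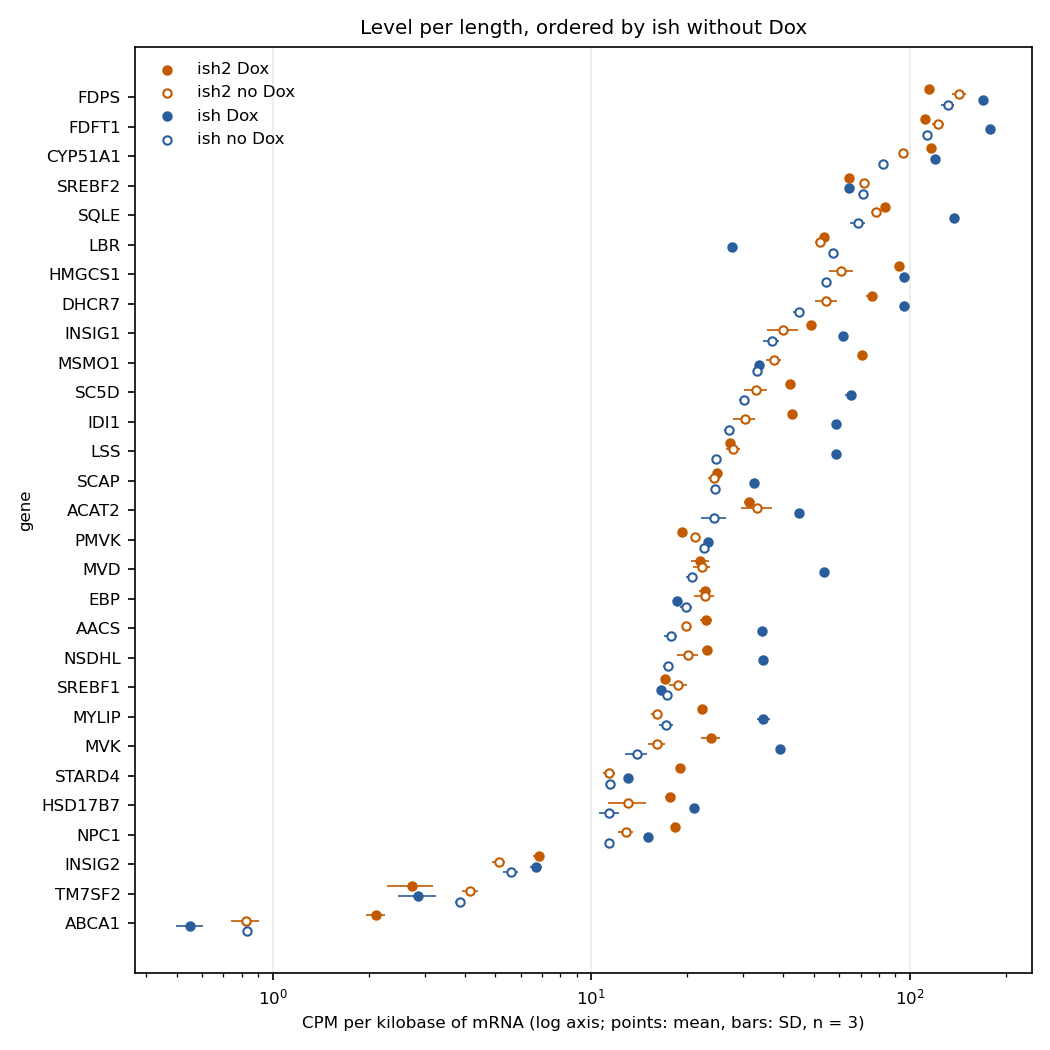
Mean level per length (CPM per kilobase of mRNA, log axis) of the 29 genes in the 4 groups, with SD (bars, n = 3), ordered by ish without Dox. Levels span from FDPS at 131 to ABCA1 at 0.832 in ish without Dox, and MSMO1 and ABCA1 stand apart in ish2 with Dox.

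Genes of neighbouring pathways did not follow one pattern. Of 17 tested genes, from 18 listed, of fatty acid synthesis, where SREBP1 acts, 9 were called higher and 5 lower in ish2 (33.9% and 31.1% of all tested genes), and 10 higher and 4 lower in ish (39.1% and 39.5%). ACSS2, which makes acetyl-CoA from acetate, averaged 74.6 ± 0.877 CPM with Dox against 48.7 ± 1.79 CPM without it in ish2 (log2 fold change 0.61) and 94.6 ± 1.32 CPM with Dox against 49.6 ± 1.27 CPM without it in ish (0.93). SCD, the fatty acid desaturase with the highest counts of those named here, had log2 fold changes of 0.24 (SE 0.03) in ish2 and 0.29 (SE 0.03) in ish. These 2 genes were called higher in both constructs, as were 10 of the 20 enzymes of the cholesterol set and 13.8% of all tested genes. GPAM, which starts glycerolipid synthesis, had -0.15 (SE 0.03) in ish2 and -1.57 (SE 0.03) in ish, ELOVL6, a fatty acid elongase, -0.12 (SE 0.04) and -1.47 (SE 0.05), and FADS1, a desaturase of polyunsaturated fatty acids, -0.29 (SE 0.03) and -0.80 (SE 0.03), all called lower.

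Of 17 genes of the isoprenoid branches and prenylation, 8 were called higher and 2 lower in ish2 (33.9% and 31.1% of all tested genes), and 9 higher and 3 lower in ish (39.1% and 39.5%), with medians of 0.20 in both. GGPS1, which draws on the product of FDPS, had log2 fold changes of 0.08 (SE 0.04) in ish2, not called, and 0.51 (SE 0.04) in ish. ZMPSTE24, the protease of prelamin A, had 0.22 (SE 0.04) in ish2 and -0.89 (SE 0.04) in ish, called in opposite directions. RABGGTB, a subunit of Rab prenyltransferase, had 0.44 (SE 0.03) and 0.20 (SE 0.03), and ICMT, which methylates prenylated proteins, -0.22 (SE 0.03) and -0.36 (SE 0.03). RCE1, which trims them, had 0.40 (SE 0.05) in ish2 and was not called in ish (0.00).

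Of 16 genes of SREBP cleavage and sterol-regulated turnover, 9 were called higher and 3 lower in ish2 (33.9% and 31.1% of all tested genes), and 8 each way in ish (39.1% and 39.5%). MBTPS2, the protease that makes the final cut in SREBP, averaged 61.9 ± 2.43 CPM with Dox against 57.1 ± 1.86 CPM without it in ish2 (log2 fold change 0.12, SE 0.04, adjusted p = 0.00716), and 33.2 ± 1.55 CPM with Dox against 57.8 ± 0.572 CPM without it in ish (log2 fold change -0.80, SE 0.04, adjusted p = 1.14e-19). ERLIN1 and ERLIN2, partners in membrane domains of the endoplasmic reticulum, had log2 fold changes of 0.17 (SE 0.03) and 0.01 (SE 0.03) in ish2 and of -1.02 (SE 0.03) and -1.35 (SE 0.03) in ish, ERLIN2 not being called in ish2. MBTPS2 and ERLIN1 were thus called higher in ish2 and lower in ish. PAQR3, a Golgi anchor of SCAP, had 0.55 (SE 0.04) in ish2 and -0.21 (SE 0.04) in ish. RNF139, a ubiquitin ligase, was higher in both (0.46 in ish2 and 0.21 in ish).

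Of 20 genes of cholesterol uptake, transport and esterification, 14 were called higher and 4 lower in ish2 (33.9% and 31.1% of all tested genes), and 8 higher and 11 lower in ish (39.1% and 39.5%), with medians of 0.23 and -0.22. NCEH1, which splits cholesteryl esters, averaged 37.3 ± 1.44 CPM with Dox against 14.9 ± 0.609 CPM without it in ish2 (log2 fold change 1.32, SE 0.05, adjusted p = 1.62e-22), and 14.1 ± 0.384 CPM with Dox against 13.01 ± 0.203 CPM without it in ish (log2 fold change 0.12, SE 0.06, adjusted p = 0.0691). LIPA, the lysosomal esterase, averaged 375 ± 6.15 CPM with Dox against 189 ± 3.16 CPM without it in ish2 (log2 fold change 0.99, SE 0.03, adjusted p = 2.43e-27), and 157 ± 1.62 CPM with Dox against 209.6 ± 4.54 CPM without it in ish (log2 fold change -0.41, SE 0.03, adjusted p = 1.51e-16). LIPA, like ABCA1, was higher in ish2 and lower in ish, and so were SOAT1, which makes cholesteryl esters (0.33 in ish2 and -1.19 in ish), and CAV1, the caveolin (0.96 in ish2 and -0.25 in ish). NPC2, which hands cholesterol to NPC1, was higher in both (0.22 in ish2 and 0.72 in ish), and LRP8, a lipoprotein receptor, was lower in both (-0.36 in ish2 and -1.11 in ish).

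Of 11 LXR factors, LXR targets and oxysterol enzymes, 8 were tested and CYP7B1 was listed at 0 throughout, with 3 called higher and 2 lower in ish2 (33.9% and 31.1% of all tested genes), and 4 higher and 3 lower in ish (39.1% and 39.5%), shares near those of all tested genes. NR1H2, which encodes LXR beta, averaged 60.6 ± 0.490 CPM with Dox against 45.7 ± 1.71 CPM without it in ish2 (log2 fold change 0.41, SE 0.04, adjusted p = 3.1e-12), and 41.01 ± 0.603 CPM with Dox against 41.98 ± 0.343 CPM without it in ish (log2 fold change -0.03, SE 0.04, adjusted p = 0.414). Its partner RXRA had -0.58 (SE 0.04) in ish2 and 0.16 (SE 0.03) in ish, called in opposite directions. SMPDL3A, a phosphodiesterase known as an LXR target in human macrophages, averaged 20.7 ± 0.124 CPM with Dox against 10.2 ± 0.309 CPM without it in ish2 (log2 fold change 1.02, SE 0.06, adjusted p = 4.44e-17), and 23.5 ± 0.680 CPM with Dox against 11.6 ± 0.594 CPM without it in ish (log2 fold change 1.02, SE 0.05, adjusted p = 7.89e-19). SMPDL3A was higher in both constructs, unlike ABCA1, and its effects were not called different (-0.01, SE 0.08, adjusted p = 0.947). CYP27A1, which makes an oxysterol, had 0.10 (SE 0.09) in ish2, not called, and 1.85 (SE 0.06) in ish, and HSD3B7, an enzyme of bile acid synthesis, had -0.29 (SE 0.04) in ish2 and -0.66 (SE 0.04) in ish.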

How the data were processed

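RNA of 12 RD cell libraries was analysed. The authors deposited raw read counts per gene symbol; per the submitters' processing notes the tools include Trim Galore 0.6.4, STAR 2.7.3a, featureCounts and Subread 1.6.3 with GRCh38. Annotation and strand setting: not given in the sources used here. Per the labels' protocols, the libraries were stranded mRNA libraries. The 5 special rows of the table, holding reads not given to a gene, made up 21.0% to 24.4% of the counts and were left out.

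Groups came from the sample titles. The table numbers the constructs 1 and 2, and 1 was taken as ish. Counts were filtered by expression (15206 of 26485 genes kept), scaled by TMM and fitted with edgeR 4.0.16 (R 4.3.3) as 4 group means over all 12 libraries. Quasi-likelihood tests were run for Dox in each construct, for the difference of these effects and for the constructs without Dox, each with Benjamini-Hochberg adjustment over all tested genes. SE was taken back from the F statistic and the log2 fold change and is approximate. Alternatives were other scalings, no filter, DESeq2 1.42.0, a fit of the compared groups, a test against 1.2-fold, a replicate block and leaving out each library. The fit was tested on simulated data.

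No pair of replicates matched within sampling noise (chi-square over degrees of freedom 1.34 to 4.22). Gene positions (given as chromosome, start and end), mRNA lengths and exon overlaps are from GENCODE on GRCh38, and promoters from RefSeq on GRCh38.p14. The members and lists were chosen with earlier results of these data known. Named beside the members are NT5E and, of each pathway list, the 3 genes with the smallest p in each construct, of which 1 gene is not reported here.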

Additional observations from a re-analysis of the deposited data

Results flagged for a closer look

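In 23 of the 29 genes the Dox effect differed between the constructs by a test of the difference itself (edgeR, adjusted p under 0.05), as in 72.6% of all tested genes. The values are the log2 effect in ish2 minus the log2 effect in ish. Among the first building blocks and the mevalonate steps, the differences were -0.96 for ACAT2, -0.74 for AACS, -0.22 for HMGCS1, -0.93 for MVK, -0.18 for PMVK, -1.40 for MVD, -0.62 for IDI1 and -0.68 for FDPS. Among the squalene and lanosterol steps they were -0.79 for FDFT1, -0.91 for SQLE and -1.27 for LSS. Between lanosterol and cholesterol they were -0.25 for CYP51A1, 1.10 for LBR, 0.91 for MSMO1, -0.79 for NSDHL, -0.45 for HSD17B7, -0.76 for SC5D and -0.62 for DHCR7. Among the regulators and transport genes they were -0.38 for SCAP, -0.45 for INSIG1, 0.55 for STARD4, -0.54 for MYLIP and 1.94 for ABCA1. All 23 kept their direction under each of the alternatives run.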

How the results depend on the processing

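Among 2175 values recomputed under the alternatives, no fold change of a member called in the main fit or in the alternative changed sign. Sign changes of values called in neither were not counted. Tested against a 1.2-fold change, the members called lower in ish2 numbered 1 in place of 6, and without Dox 0 were called higher in ish2 than in ish in place of 17 and 0 lower in place of 1. Over all tested genes that test gave 4419 calls in place of 9883 in ish2, 7905 in place of 11945 in ish and 161 in place of 3974 between the constructs without Dox, since it asks for a larger change. It ended the call of 10 members in ish2, 3 in ish (SREBF2, INSIG2 and STARD4) and 3 for the difference of effects (HMGCS1, PMVK and CYP51A1).

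Leaving out 1 library at a time, the members called in ish2 were 16 to 17 higher and 6 to 7 lower, in ish 21 to 21 higher and 4 to 5 lower, for the difference 4 to 6 higher and 19 to 20 lower, and without Dox 13 to 19 higher and 1 to 1 lower.

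Replicate numbers carried no pairing: like-numbered residuals correlated at -0.0798 to 0.0295. A fit with the replicate number as a block gave 2 members higher without Dox in place of 17 (edgeR adjusted p = 0.162 for ACAT2 and 0.0895 for DHCR7), and 1240 calls in all in place of 3974. With the block, that comparison was between the fitted levels of replicate 1 in each construct, and not between group means. Its estimates moved, as for ACAT2 (log2 fold change 0.35 with the block and 0.45 in the main fit). The counts with and without the block are thus not of the same comparison. The block changed no other call of a member. The difference of effects needs all 4 groups and was not fitted on fewer.

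Depth limits little here: all members had counts well above the filter. TM7SF2, among the members with the fewest reads, has the largest SE in each of the 4 comparisons. The spread that sets each test comes from 3 libraries per group and was small (biological coefficient of variation 2.44%).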
